A study of Mus musculus with 11 samples.

Results

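Messenger RNA of 10 genes of glycolysis and lactate metabolism was followed in cultured mouse cells of the oligodendrocyte lineage, on 11 Affymetrix Mouse Genome 430 2.0 arrays. The genes were Hk1 and Hk2, Pfkl, Pfkm and Pfkp, Tpi1, Pgam1, Ldha and Ldhb, and Gpd1, out of 18193 genes with a probe set of their own. They were read by every probe set whose platform annotation names 1 of these genes and no other, which were 23 of the 45101 probe sets. Each of the 10 genes had at least 1 probe set that passed the filter on dim signals, a signal of 200 on at least 3 arrays, and 20 of the 23 probe sets did. One further Hk1 probe set is annotated to several genes and was left out.

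Cells came from brains at postnatal day 7, were selected on antibody to PDGFRα after microglia had been depleted, and were cultured without serum, with 2% B-27 added. Knockout oligodendrocytes (n = 3) were MRF fl/fl; Olig2 wt/cre, where MRF is the older name of Myrf, a transcription factor of myelinating oligodendrocytes. Control oligodendrocytes (n = 4) were littermates with the genotype MRF wt/fl; Olig2 wt/cre. Both groups therefore carried the Olig2-driven Cre on 1 allele and at least 1 floxed MRF allele, and no oligodendrocyte group without Cre was analysed here. Cre driven from the Olig2 gene acts in Olig2-expressing cells in general and not in oligodendrocytes alone. Both groups were kept for 4 days without PDGF-AA and with 40 ng/ml of T3, a thyroid hormone, to set off differentiation. Progenitors (n = 4) stayed in 10 ng/ml PDGF-AA, for 6 days by their labels, which give no genotype beyond the word control, so whether they carried Cre is not known. Whether a replicate was a culture or an animal of its own is not given in the labels. The p-values therefore speak of how far these samples scatter, and that scatter could be technical.

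Glycolysis splits glucose into pyruvate in the cytosol. Hexokinases trap glucose as glucose 6-phosphate, and phosphofructokinase then commits it to the pathway and is its best known point of control. Triosephosphate isomerase and phosphoglycerate mutase are steps of the lower pathway. Lactate dehydrogenase interconverts pyruvate and lactate and recycles NADH, and the cytosolic glycerol 3-phosphate dehydrogenase Gpd1 draws off a triose to glycerol 3-phosphate, a precursor of membrane lipids and an NADH shuttle. Myelinating oligodendrocytes are known to be able to live on glycolysis and to pass lactate to axons.

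Before the results, some arrays stood apart. Myrf itself gave signals of 1904 to 2849 on the knockout arrays and 6215 to 7517 on the control arrays, and which exons its probe set reads was not determined. Progenitor replicate 2 had 6848 for Myrf, against 752 to 1135 on the other progenitor arrays. Its summed signal of cell cycle markers was 10833, against 39281 to 51716 on the others. Its oligodendrocyte markers summed to 57546, the highest of the 4, against 43308 on replicate 3 and 15065.5 and 19471 on replicates 1 and 4. Progenitor replicates 1 and 4 had a Gapdh signal ratio of 5′ to 3′ probe sets, a sign of the length of the labelled product, of 0.332 and 0.120, against 1.15 to 1.41 on the other 9 arrays. For the spiked control transcript dap the ratio was 0.0431 and 0.0251 there, against 0.223 to 0.476 on the others. The lowest of those others was progenitor replicate 3. Comparisons with progenitors are therefore also given without replicate 2 and without replicates 1 and 4.

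The cultures also differed in markers of other cells. The 9 astrocyte markers summed to 62996 to 70422 on knockout arrays, 44133 to 60927 on control arrays and 712 to 1795 on progenitor arrays. In both oligodendrocyte groups 8 of the 9 reached 200, and Gjb6 stayed under 100 on every array. The 7 markers of smooth muscle, pericytes and fibroblasts summed to 3393 to 4882 in knockout, 655 to 1911 in control and 240 to 479 in progenitor cultures. Of these 7, 3 reached 200 in knockout, 2 in control and 1 in progenitor cultures. Most of the sum in both oligodendrocyte groups was Tagln (1997 to 3110 in knockout, 80.7 to 873 in control) and Acta2 (1234 to 1697.5 and 298 to 1096). Pdgfrb, Col1a1 and Lum stayed under 100 on every array. The 7 oligodendrocyte markers with a probe set summed to 45838 to 55305 on knockout arrays and 82020 to 102817 on control arrays. They differed unevenly. In knockout against control, Mag was 95.3 to 639 against 11997 to 14251, and Mobp 35.3 to 903 against 12531 to 22066. Mbp was 15944 to 18058 against 18665 to 22311, and Cnp 17642 to 21228 against 21096 to 26673. The 7 cell cycle markers with a probe set summed to 707 to 1202 on knockout arrays and 1559 to 5526 on control arrays. The 7 neuron markers summed to 1027 to 1373 in knockout and 1543 to 2098 in control cultures. Of them 5 stayed under 100 on all knockout arrays and 4 on all control arrays. The 5 progenitor markers summed to 20348 to 24948 in knockout, 11982 to 16158 in control and 33145 to 43216 in progenitor cultures. Among them Pdgfra was lower in knockout (1316 to 1665) than in control cultures (1742 to 3532). None of the 7 microglia markers reached 200 in any group, and the 6 endothelial markers summed to 170 to 342 over all arrays. Whether these cells carry part of the differences below was not tested, and in RNA from whole cultures fewer cells of a type and less RNA per cell cannot be told apart.

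**Figure D1:**
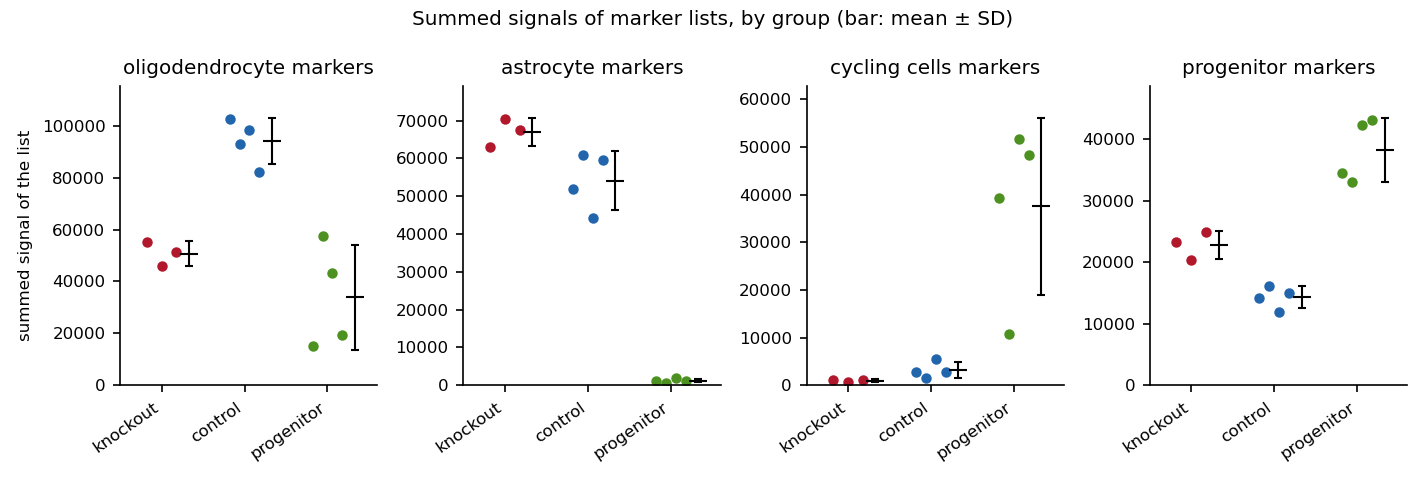
Summed MAS 5.0 signal (linear axis from 0) of the oligodendrocyte, astrocyte, cell cycle and progenitor marker lists on each array, with the mean ± SD of knockout (n = 3), control (n = 4) and progenitor (n = 4) arrays. Astrocyte markers were high in both oligodendrocyte groups and at most 1795 in progenitors, and progenitor replicate 2 lies low for cell cycle markers at 10833.

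Promoter windows from RefSeq (GRCm38.p6, 250 bases before to 50 after a transcript start) were matched for 9 of the 10 genes, 14 windows in all. They were searched on both strands for ACGTG, a form of the core bound by the hypoxia-inducible factors, and for CACGTG, which contains it. Other forms of that core were not searched. The windows were also searched for CTGGTAC or CTGGCAC, the sequence known to be bound by Myrf. The windows of Pfkl and Tpi1 are shown because these genes rose most clearly in the knockout, and those of Ldha and Hk2 because these fell most clearly from progenitors to control oligodendrocytes. Capitals mark ACGTG or its reverse complement CACGT, run together where matches overlap, and CTGGTAC in the Tpi1 window.

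Pfkl, chr10:78009758-78010057, minus strand: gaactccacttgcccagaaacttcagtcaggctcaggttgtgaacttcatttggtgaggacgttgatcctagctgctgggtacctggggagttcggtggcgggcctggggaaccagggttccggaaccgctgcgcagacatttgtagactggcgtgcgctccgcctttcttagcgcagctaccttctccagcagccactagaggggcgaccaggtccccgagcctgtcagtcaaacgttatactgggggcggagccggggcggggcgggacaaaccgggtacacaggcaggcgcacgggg
Tpi1, chr6:124814109-124814408, minus strand: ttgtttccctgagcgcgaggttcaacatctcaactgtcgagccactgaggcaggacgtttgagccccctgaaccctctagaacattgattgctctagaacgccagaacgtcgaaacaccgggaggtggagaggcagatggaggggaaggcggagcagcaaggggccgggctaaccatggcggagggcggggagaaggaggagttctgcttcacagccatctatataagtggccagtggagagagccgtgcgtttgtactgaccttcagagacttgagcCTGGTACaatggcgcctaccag
Ldha, chr7:46845554-46845853, plus strand: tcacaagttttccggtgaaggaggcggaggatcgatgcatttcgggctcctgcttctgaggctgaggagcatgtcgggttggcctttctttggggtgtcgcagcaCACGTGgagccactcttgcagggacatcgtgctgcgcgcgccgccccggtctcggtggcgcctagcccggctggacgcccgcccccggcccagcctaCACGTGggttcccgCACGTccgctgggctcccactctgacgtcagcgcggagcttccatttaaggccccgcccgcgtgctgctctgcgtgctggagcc
Hk2, chr6:82774405-82774704, minus strand: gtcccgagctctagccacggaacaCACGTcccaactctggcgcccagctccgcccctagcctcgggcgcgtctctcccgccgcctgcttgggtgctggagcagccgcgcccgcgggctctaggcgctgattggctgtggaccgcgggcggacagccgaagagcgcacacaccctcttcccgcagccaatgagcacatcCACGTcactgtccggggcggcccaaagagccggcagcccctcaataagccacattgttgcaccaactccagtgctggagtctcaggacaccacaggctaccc

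The Ldha window held 5 matches of ACGTG over both strands, because each of its 2 palindromic CACGTG sites counts on either strand. The Hk2 window held 2 matches, the Tpi1 window 1 CTGGTAC and no ACGTG, and the Pfkl window none of the motifs searched. Over all windows of the 9 genes, ACGTG was present in 6 of 14, from 5 genes, and CTGGTAC or CTGGCAC in 2 of 14, from Tpi1 and a second Ldha window. Of 32851 mouse promoter windows of the same length, 19.6% held ACGTG, 7.15% CACGTG and 7.10% CTGGTAC or CTGGCAC. A match is a description of these letters, not a site of binding.

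Against control oligodendrocytes, the knockout cultures had more RNA of Pfkl, Pfkm and Tpi1 and less of Gpd1. Pfkl, the phosphofructokinase subunit named for liver, differed most, at 4.00-fold. Pfkm was 1.86-fold and Tpi1 1.64-fold higher, and Gpd1 was 2.82-fold lower. The other 6 genes did not pass the threshold, a Benjamini-Hochberg adjusted p of 0.05 in limma over 10069 genes. Thus 3 of 10 rose and 1 fell, where 3.64% of all genes rose and 3.88% fell. In 8 of the 10 genes all knockout arrays lay on one side of all control arrays, as in 31.6% of all genes. For Ldhb (2874.2 against 2867.1) and Pfkp (1247.3 against 1252.4) the gap was narrow. On some other probe sets of Ldhb, Pfkp and Gpd1 the groups overlapped. The median log2 difference was 0.43 over the 10 genes and 0.03 over all genes. With replicate number as a block, 5 of the 10 were higher: Ldha (limma adjusted p = 0.0191) and Ldhb (adjusted p = 0.0225) joined the 3. That numbers pair these 2 groups was taken from how same-numbered arrays deviated together. Control replicate 4, without a knockout array of its number, was left out of that fit. Under that block 22.2% of all genes passed in either direction, against 7.53% in the fit without it. Without knockout replicate 1 or 2 only Pfkl remained among those higher. The astrocyte, the progenitor and the smooth muscle, pericyte and fibroblast sums given above were also higher on every knockout array than on any control array. Their part was not tested.

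Between progenitors and control oligodendrocytes, genes at both ends of the pathway differed. By the probe set that represents each gene, Hk1, Hk2, Pfkl and Ldha were lower in control oligodendrocytes and Gpd1 was higher. That is 4 of 10 lower and 1 higher, where 29.6% of all genes were lower and 24.4% higher in limma at the same threshold. A second probe set did not give the call for Hk1 (1.25, limma adjusted p = 0.0581) or for Pfkl (-0.17, adjusted p = 0.640). Arrays did not overlap for 5 of 10 genes, as for 43.8% of all genes, so neither share stands far from the background. The medians were -0.45 over the 10 genes and -0.09 over all genes. Without progenitor replicates 1 and 4 only Hk2 and Ldha were lower.

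Knockout oligodendrocytes against progenitors gave Pfkl, Pfkm and Tpi1 higher and Hk2 lower. These are 3 of 10 higher and 1 lower, against 23.8% and 26.8% of all genes, and groups did not overlap for 4 of 10 genes against 49.9% of all. The medians were 0.10 and -0.05. Without knockout replicate 2 only Pfkm was higher. Every pair of these comparisons shares a group of arrays, so that the 3 sets of values are not independent of each other. In what follows, differences are log2 of the signal plus 16, ± the standard error of the limma fit, and 3 arrays stand for knockout and 4 for each other group.

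**Figure D2:**
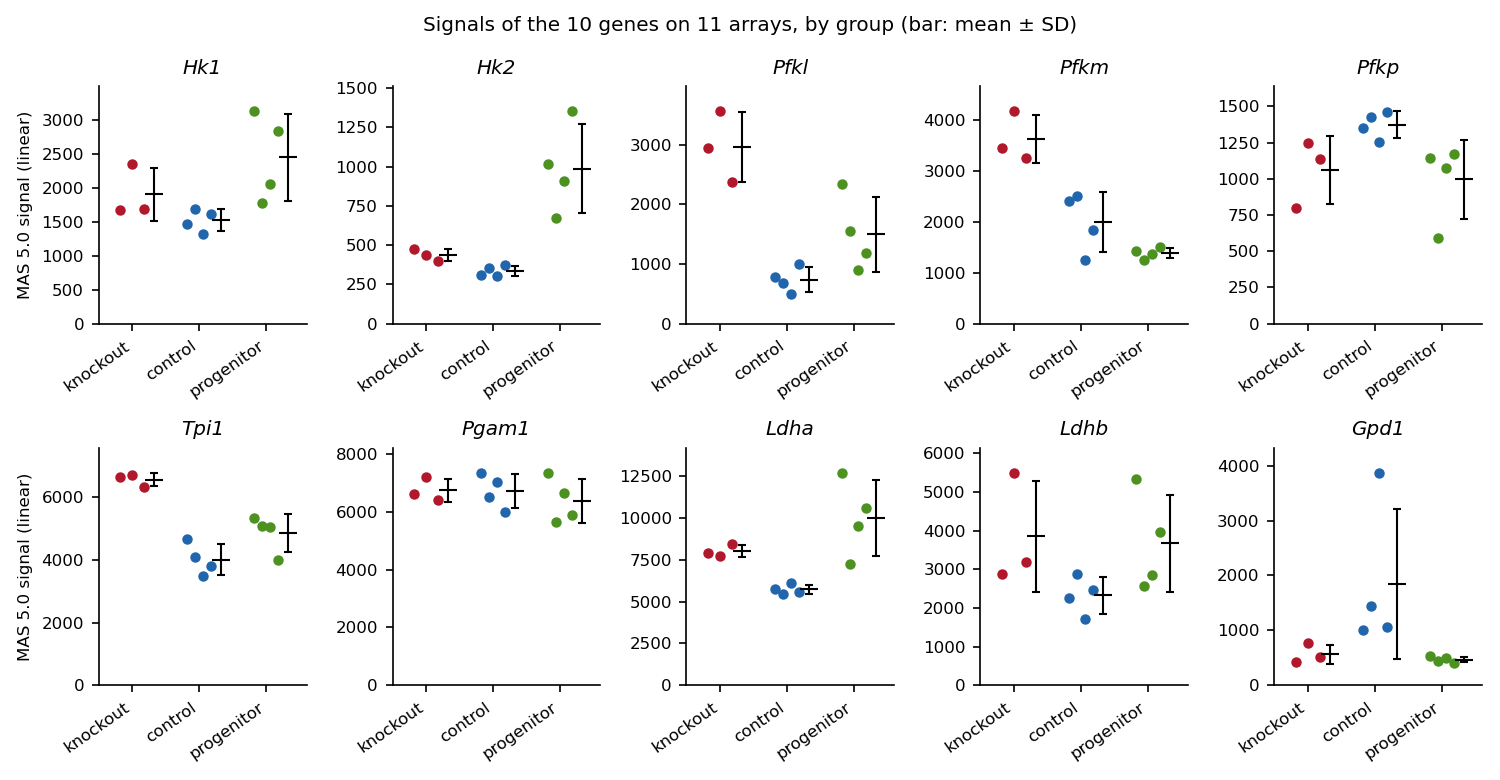
MAS 5.0 signal (linear axes from 0, one per gene) of the representing probe set of each gene on every array, with the mean ± SD of knockout (n = 3), control (n = 4) and progenitor (n = 4) arrays. The 3 knockout arrays lie above all control arrays for Hk2, Pfkl, Pfkm, Tpi1, Ldha and Ldhb, and all 3 groups overlap for Pgam1.

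**Figure D3:**
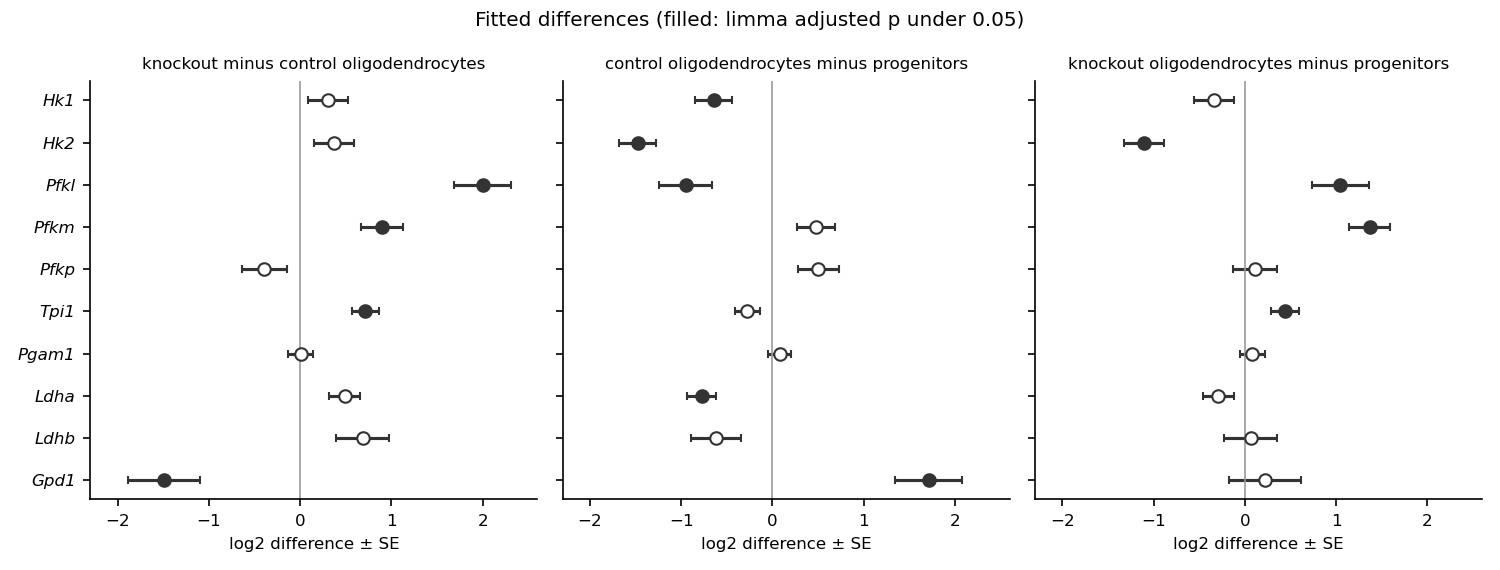
Fitted log2 difference ± SE of the 10 genes in each of the 3 comparisons, filled where the limma adjusted p was under 0.05. Pfkl, Pfkm and Tpi1 are filled to the right of 0 in both comparisons of the knockout, and Hk2 is filled to the left of 0 in both comparisons with progenitors.

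Hk2, the inducible hexokinase that binds the outer mitochondrial membrane, was highest in progenitors. Its signals were 479, 434.5 and 398 on the knockout arrays, 312, 354, 301 and 375 on the control arrays and 1015, 672, 911 and 1351.5 on the progenitor arrays. No array of one group reached into another, and the order was progenitors, then knockout, then control. Control oligodendrocytes were 2.78-fold lower than progenitors (-1.48 ± 0.20, limma adjusted p = 0.000133), and knockout oligodendrocytes 2.16-fold lower (-1.11 ± 0.22, adjusted p = 0.00150). Both calls held under every alternative, with -1.19 and -0.82 without progenitor replicates 1 and 4 and -1.64 and -1.27 without replicate 2. The difference between knockout and control was 0.37 ± 0.22 (adjusted p = 0.367) and did not pass, although the arrays did not overlap. Cell cycle markers were high where Hk2 was, summing to 10833 to 51716 in progenitors and to at most 5526 in the other groups, and their part was not tested. The progenitor marker sums had the same order of groups as Hk2, but of the single markers Ptprz1 alone had it without overlap. Pdgfra was lower in knockout (1316 to 1665) than in control cultures (1742 to 3532), and Cspg4 overlapped between them. Vcan was highest on a knockout array, and Gpr17 was 10016 to 13929 in knockout and 4274.5 to 16882 in progenitor cultures. The part of these markers was not tested either.

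Hk1, the constitutive hexokinase of brain, was read differently by its probe sets. On the brighter, 1437974_a_at, signals were 1669, 2350.3 and 1683.5 in knockout, 1464, 1692, 1326 and 1620.1 in control and 3121, 1775, 2048.5 and 2834 in progenitor cultures. By this probe set control oligodendrocytes lay below every progenitor array (-0.64 ± 0.20, limma adjusted p = 0.0188), and the knockout did not differ past the threshold from control (0.30, adjusted p = 0.477) or from progenitors (-0.34, adjusted p = 0.211). The call against progenitors was lost without progenitor replicate 1 (adjusted p = 0.0592) and without replicates 1 and 4 (-0.32, adjusted p = 0.176).

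The other Hk1 probe set, 1420901_a_at, gave 1204, 1692 and 869, then 864, 749.9, 963 and 967, then 250.4, 911, 655 and 105 on the same groups. Here progenitor replicates 1 and 4 were the lowest of all arrays, whereas on 1437974_a_at they were the highest. Over 18568 probe sets the limma difference of knockout minus progenitors on 1420901_a_at was 1.70 ± 0.56 (adjusted p = 0.0241), opposite in sign to -0.34 on the brighter one. It was 0.64 (adjusted p = 0.0862) without progenitor replicates 1 and 4, no longer past the threshold. Control minus progenitors was 1.25 ± 0.52 (adjusted p = 0.0581) and 0.19 (adjusted p = 0.583) without progenitor replicates 1 and 4. With the mean of both probe sets the gene's difference of control minus progenitors turned from -0.64 to 0.31, so no direction for Hk1 against progenitors holds across its probe sets.

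**Figure D4:**
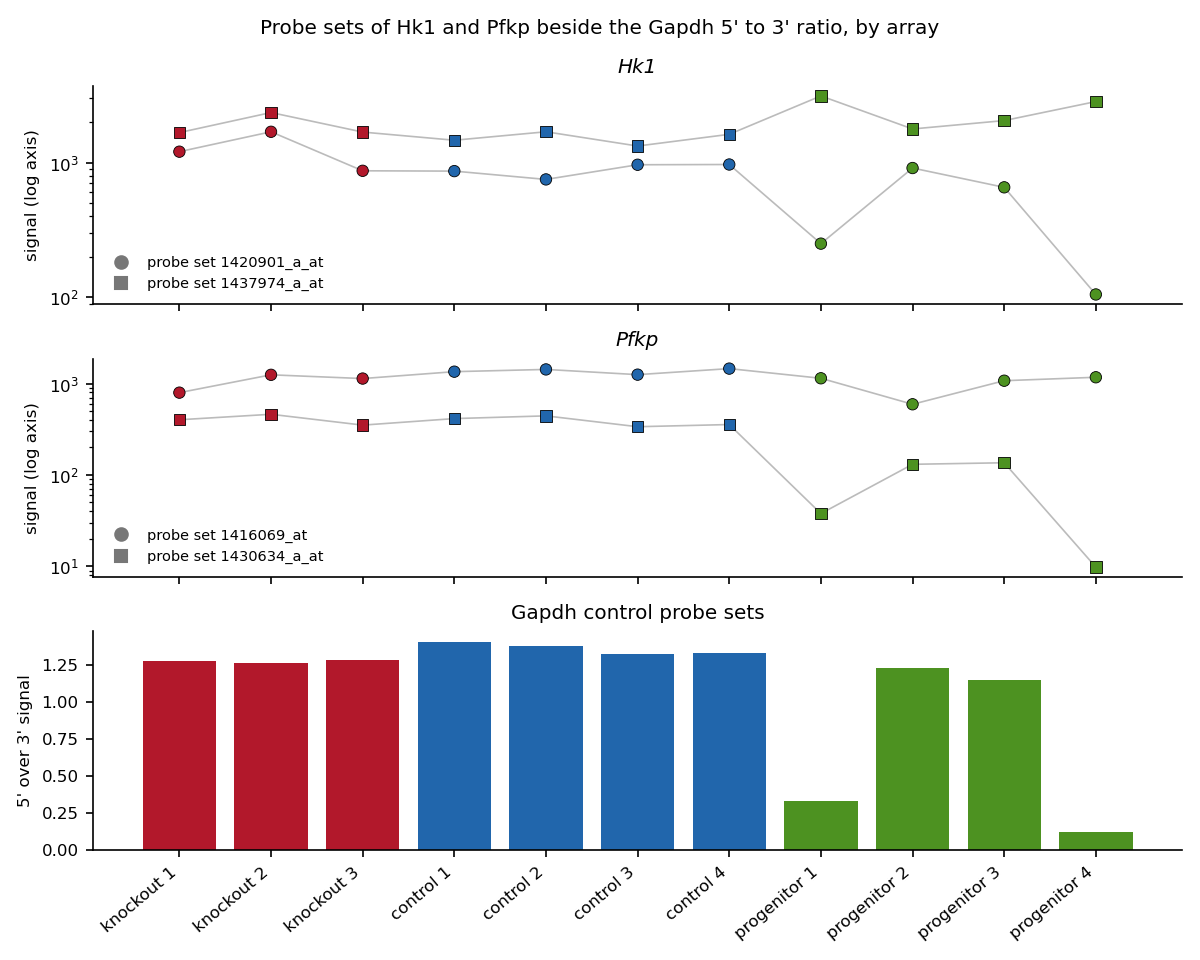
Signals (log axis) of both filtered probe sets of Hk1 and of Pfkp on each of the 11 arrays, above the Gapdh 5′ to 3′ signal ratio of the same arrays (bars from 0). Progenitor replicates 1 and 4, with Gapdh ratios of 0.332 and 0.120, are the lowest arrays for 1420901_a_at and for 1430634_a_at and not for the brighter probe set of either gene.

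Of the phosphofructokinase subunits, Pfkl rose most in the knockout. Probe set 1439148_a_at gave 2944, 3554 and 2377 on knockout arrays, 777.5, 683, 499 and 995 on control arrays and 2342, 1553, 900.1 and 1182 on progenitor arrays. Every knockout array exceeded every array of the other groups, and control and progenitor arrays overlapped. The group means were 2958.5 ± 589 (SD, n = 3), 739 ± 206 (SD, n = 4) and 1494 ± 625 (SD, n = 4). The knockout exceeded control by 2.00 ± 0.31 (limma adjusted p = 0.00215). The call held under all 21 alternatives, from 1.70 with the mean of its probe sets to 2.16 with the replicate block. Against progenitors the knockout was 2.07-fold higher (1.05 ± 0.31, adjusted p = 0.0151), a call lost without knockout replicate 2 (adjusted p = 0.0682).

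A second Pfkl probe set, 1450269_a_at, showed the same order between knockout and control. Its signals were 2049, 1959 and 1445 in knockout, 767, 674, 457 and 849.7 in control and 1209, 872, 566 and 536.5 in progenitor cultures, and knockout minus control was 1.40 ± 0.30 (limma adjusted p = 0.0195 over probe sets). It did not separate control from progenitors (-0.17, adjusted p = 0.640), where 1439148_a_at had -0.95 ± 0.29 (adjusted p = 0.0155 over genes). That second call was lost without progenitor replicates 1 and 4 (-0.71, adjusted p = 0.0815) and with the mean of probe sets (adjusted p = 0.104). The third Pfkl probe set was dim, at 25.0 to 103.5 on all arrays, and was not tested.

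Pfkm, the subunit named for muscle, rose in the knockout as well. It gave 3451, 4173 and 3268 on knockout, 2406, 2514, 1253 and 1833 on control and 1428, 1259, 1373 and 1499 on progenitor arrays. The knockout arrays were the 3 highest of the 11, and control replicate 3 was the lowest. It exceeded control by 0.90 ± 0.23 (limma adjusted p = 0.0322) and progenitors by 1.37 ± 0.23 (adjusted p = 0.000479). The first call was lost when 1 of 5 arrays was left out: knockout replicate 1 (adjusted p = 0.0941), 2 (0.157) or 3 (0.0730), or control replicate 3 (0.0543) or 4 (0.0694). The second held under every alternative. Control minus progenitors was 0.47 (adjusted p = 0.0746) and did not pass.

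Pfkp, the platelet-type subunit that is abundant in brain, did not follow the other subunits in the knockout. On 1416069_at it gave 796, 1247 and 1135 in knockout, 1349.9, 1429, 1252 and 1458 in control and 1143, 594, 1075 and 1172 in progenitor cultures. The control arrays were the highest, with knockout minus control at -0.39 ± 0.24 (limma adjusted p = 0.395) and control minus progenitors at 0.50 ± 0.23 (adjusted p = 0.0794). Neither passed, and the latter passed without progenitor replicates 1 and 4 (0.76, adjusted p = 0.0338).

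The dimmer Pfkp probe set 1430634_a_at read 402, 461 and 351 in knockout, 414, 443, 337 and 356 in control and 37.8, 131, 136 and 9.8 in progenitor cultures. All 4 progenitor arrays were below every oligodendrocyte array, and replicates 1 and 4 were lowest. This probe set reached 200 on the 7 oligodendrocyte arrays alone and passed the filter only through them. Its calls against progenitors are therefore not independent of the filter. Its limma difference of control minus progenitors was 2.43 ± 0.48 (adjusted p = 0.00159 over probe sets) and 1.43 (adjusted p = 0.000553) without replicates 1 and 4. Knockout minus control was 0.06 (adjusted p = 0.976). The third Pfkp probe set did not pass the filter.

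Within each array the balance of the subunits can be set between groups, as a difference of log2 signals whose zero has no meaning of its own. Pfkl minus Pfkp was 1.06 to 1.87 on knockout arrays, -1.30 to -0.54 on control arrays and -0.25 to 1.36 on progenitor arrays. Pfkm minus Pfkp was 1.51 to 2.09 on knockout arrays and 0.00068 to 0.83 on control arrays. In both, knockout and control arrays did not overlap. Probe sets differ in brightness, so these values do not tell which subunit is more abundant.

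Tpi1, triosephosphate isomerase, was higher in the knockout on all of its 3 probe sets. On 1452927_x_at it gave 6642.5, 6709 and 6309.5 in knockout, 4655, 4084.5, 3482 and 3811 in control and 5321.5, 5086, 5029 and 3987 in progenitor cultures. The 3 knockout arrays lay above all others and within 6310 to 6709. Their excess over control was 0.71 ± 0.15 (limma adjusted p = 0.0122), lost without knockout replicate 1 (adjusted p = 0.0587) or 2 (0.0609) at nearly the same difference of 0.70. Over probe sets 1435659_a_at had 0.76 (adjusted p = 0.00862) and 1415918_a_at 0.75 (adjusted p = 0.0956), the latter not past the threshold until progenitor replicates 1 and 4 were left out (adjusted p = 0.00826). Knockout minus progenitors was 0.44 ± 0.15 (adjusted p = 0.0277), past the threshold under 14 of 21 alternatives, and control minus progenitors -0.28 (adjusted p = 0.110). Without progenitor replicates 1 and 4 the former had an adjusted p of 0.0611.

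Pgam1, phosphoglycerate mutase, was level across the groups. Its signals were 6614.5, 7200.1 and 6429 in knockout, 7344, 6514, 7055 and 6014 in control and 7351, 5656.5, 6650 and 5906 in progenitor cultures, and all groups overlapped. Its differences were 0.01 ± 0.14 for knockout minus control (limma adjusted p = 0.986), 0.08 ± 0.13 for control minus progenitors (adjusted p = 0.622) and 0.08 ± 0.14 for knockout minus progenitors (adjusted p = 0.627). The sign of the first turned in 4 alternatives, at -0.05 to -0.01.

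Ldha, the lactate dehydrogenase subunit that favours lactate formation, was lowest in control oligodendrocytes. It gave 7904, 7719 and 8446.5 on knockout, 5737, 5445.5, 6121 and 5591 on control and 12689, 7238, 9528 and 10606.5 on progenitor arrays. Control arrays lay below all others, and knockout arrays lay within the progenitor range. Control oligodendrocytes were 1.71-fold lower than progenitors (-0.78 ± 0.16, limma adjusted p = 0.00156), under every alternative, at -0.54 without progenitor replicates 1 and 4 and -0.92 without replicate 2. Knockout minus control was 0.49 ± 0.17 (adjusted p = 0.111), 1.40-fold, and did not pass in the fit of all arrays. That fit takes the gene's spread from all 3 groups, and the progenitor arrays ranged from 7238 to 12689. With the same difference the adjusted p was 0.00916 when only the 2 groups were fitted, 0.0285 without progenitor replicate 2 and 0.0282 without replicates 1 and 4. Knockout minus progenitors was -0.29 (adjusted p = 0.166), and it passed without progenitor replicate 2 (-0.44, adjusted p = 0.0169).

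Ldhb, the subunit that favours the return of lactate to pyruvate, passed in none of the comparisons on its brightest probe set. Signals on 1416183_a_at were 2874, 5492 and 3191 in knockout, 2248, 2867, 1726 and 2463 in control and 5326, 2568, 2848 and 3966 in progenitor cultures. Knockout replicate 2 and progenitor replicate 1 were the highest arrays, and knockout exceeded control by a narrow gap without overlap. Knockout minus control was 0.69 ± 0.29 (limma adjusted p = 0.195), and 0.40 (adjusted p = 0.610) without knockout replicate 2. Control minus progenitors was -0.62 ± 0.27 (adjusted p = 0.0700). Of its other 3 probe sets, 1434499_a_at (-0.86, adjusted p = 0.0265) and 1448237_x_at (-0.80, adjusted p = 0.0360) passed as lower in control than in progenitors, and not without progenitor replicates 1 and 4 (adjusted p = 0.266 and 0.297). Knockout and control arrays overlapped on 1434499_a_at and on 1455235_x_at. Ldha minus Ldhb within an array was 0.49 to 1.45 in knockout, 0.92 to 1.82 in control and 1.25 to 1.74 in progenitor cultures, so the groups overlapped.

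Gpd1 was the gene of the 10 that fell in the knockout. Probe set 1448249_at gave 417, 762 and 506 in knockout, 1005, 1442, 3866 and 1055 in control and 524, 440.1, 499 and 408 in progenitor cultures. Control arrays were above all others, knockout and progenitor arrays overlapped, and control replicate 3 was far above the other controls. Control minus progenitors was 1.71 ± 0.37 (limma adjusted p = 0.00227, 3.28-fold), a call kept under every alternative. Knockout minus control was -1.49 ± 0.39 (adjusted p = 0.0400) and -1.06 (adjusted p = 0.0299) without control replicate 3. That call was lost under 9 of 21 alternatives, among them without knockout replicate 1 (adjusted p = 0.160), 2 (0.0619) or 3 (0.127), without control replicate 2 (0.0708), and without progenitor replicate 1 (0.0551) or 3 (0.0541).

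The other Gpd1 probe sets differed. On 1416204_at signals were 319, 709 and 439.7 in knockout, 740.5, 927.5, 3163 and 669.8 in control and 99.9, 222, 193.5 and 95.5 in progenitor cultures, so that knockout and control overlapped through knockout replicate 2. Knockout minus control there was -1.22 ± 0.51 (limma adjusted p = 0.222 over probe sets), and knockout minus progenitors 1.59 ± 0.51 (adjusted p = 0.0217), where 1448249_at had 0.22. That difference on 1416204_at was 1.10 (adjusted p = 0.154) without progenitor replicates 1 and 4, no longer past the threshold. The dim 1439396_x_at, at 78.4 to 294 on all arrays, passed in no comparison, and 1456732_at stayed at 2.5 to 19.3. With the mean of the filtered probe sets knockout minus control was -0.80 (adjusted p = 0.225). Control replicate 3 also had the lowest astrocyte marker sum of the control arrays, 44133, and their highest cell cycle sum, 5526, whose part in the Gpd1 value was not tested.

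Over the 20 filtered probe sets of the 10 genes, 5 passed between knockout and control, 10 between control and progenitors and 10 between knockout and progenitors. Of all 18568 filtered probe sets 5.48%, 53.3% and 50.6% passed in these comparisons, so that the counts against progenitors are near the background. Without progenitor replicates 1 and 4 the latter counts were 6 and 6. Pfkp 1430634_a_at, which passed the filter only through oligodendrocyte arrays, is counted in both comparisons with progenitors. A probe set whose name ends in x_at can also bind other transcripts by the maker's naming. For Tpi1 the a_at probe set 1435659_a_at gave the same call as the x_at one that represents the gene in both comparisons of the knockout. For control minus progenitors 1435659_a_at passed as lower (-0.34, limma adjusted p = 0.0460), and the x_at one did not (-0.28, adjusted p = 0.117). Without progenitor replicates 1 and 4 the call of 1435659_a_at was lost (adjusted p = 0.0836).

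Across the 7 oligodendrocyte arrays the signals of Pfkl, Pfkm and Tpi1 moved together, with r of 0.88 to 0.95 between them, and Gpd1 ran against them, with r of -0.86 to -0.84. Over all 11 arrays Pfkl and Tpi1 had r = 0.89 and Hk1 and Ldhb r = 0.89. These are descriptions over arrays that include the group differences themselves.

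Other genes of the pathway were read from lists of 71 genes, of which 63 had a probe set of their own and 47 passed the filter. Between knockout and control 5 of the 47 rose and 2 fell in limma, against 3.64% and 3.88% of all genes, with a median of 0.08 against 0.03. Slc16a3, 1 of the 5, passed the filter through its knockout arrays alone. With the replicate block 9 rose and 5 fell, where 22.2% of all genes passed in either direction. Between control and progenitors 17 were higher and 7 lower, and between knockout and progenitors 18 and 8, against the backgrounds of 24.4% and 29.6% and of 23.8% and 26.8% given above. Some of those higher, with Eno2 and Pdp1 among them, passed the filter through oligodendrocyte arrays alone. Medians of the lists below are for knockout minus control, where the median of all genes was 0.03.

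The regulators of glycolytic flux gave 2 higher and 1 lower of 6 tested in the knockout, with a median of 0.35. Hif1a, the oxygen-regulated subunit of HIF-1 that drives many glycolytic genes, gave 11326, 9066 and 10925 on knockout, 5364, 5892, 5578 and 5609 on control and 9687, 12391, 9557 and 11057 on progenitor arrays. Control arrays lay below both other groups, as for Ldha. Knockout minus control was 0.89 ± 0.13 (limma adjusted p = 0.00175) and control minus progenitors -0.92 ± 0.12 (adjusted p = 0.000122, and 0.0740 with the mean of its probe sets). Fbp1, fructose bisphosphatase, which runs against phosphofructokinase, gave 1401, 739 and 1655 in knockout and 228, 288, 81.3 and 282 in control cultures (2.49 ± 0.65, adjusted p = 0.0377). In progenitors it was 74.8 to 108 on 3 arrays and 677.5 on replicate 2. Its call against control was lost without any 1 knockout or control array (adjusted p = 0.0520 to 0.141).

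Pfkfb4, which makes and removes the activator fructose 2,6-bisphosphate, fell in the knockout, with 477, 556 and 443 against 906, 798, 1924 and 883 on control arrays (-1.08 ± 0.28, limma adjusted p = 0.0342). That call was lost without knockout replicate 1 (adjusted p = 0.118), 2 (0.0836) or 3 (0.124) or control replicate 1 (0.0593). Pfkfb4 was higher in control oligodendrocytes than in progenitors (1.59 ± 0.26, adjusted p = 0.000383). Its relative Pfkfb3 was higher in both oligodendrocyte groups, at 693 to 1170.2 and 669.9 to 888 against 111 to 242 in progenitors (2.31 and 2.01, adjusted p = 3.69e-05 and 5.15e-05).

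Of the 8 tested genes of glucose and lactate transport, 2 rose and 0 fell in the knockout in limma (0 lower also at an unadjusted p under 0.05), with a median of 0.19. Slc16a3, the lactate exporter MCT4, had signals of 250.4, 343.5 and 201 on knockout arrays, 41.7, 36.3, 24.3 and 54.3 on control arrays and 28.0, 38.4, 30.2 and 27.1 on progenitor arrays. Only knockout arrays exceeded 100. Against a floor of 100 the knockout was at least 2.58-fold higher, or at least 2.24-fold without knockout replicate 2, with a limma adjusted p of 0.000921. Slc16a3 reached 200 on the 3 knockout arrays and on no other, so it passed the filter only through the group where it was high and had to differ. Its adjusted p without the filter was 0.000330. Slc2a8, an intracellular hexose transporter, was 915 to 1339 in knockout and 304 to 560.2 in control cultures (1.26 ± 0.26, adjusted p = 0.0111), a call lost without knockout replicate 1 (adjusted p = 0.0502) or 2 (0.0702). Slc16a1, the monocarboxylate transporter MCT1 through which oligodendrocytes are known to release lactate, was at 7758.5 to 9420.5 in knockout and 5798 to 7688 in control cultures against 641 to 1603 in progenitors. It was higher by 2.36 in control (limma adjusted p = 2.69e-05) and by 2.79 in knockout oligodendrocytes (adjusted p = 1.46e-05). Its partner Bsg, the chaperone of these transporters, was higher too (1.60 and 1.76), and 0.62 and 0.78 without progenitor replicates 1 and 4.

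Of the 13 tested genes of pyruvate entry to mitochondria, 1 rose in the knockout and 0 fell in limma (3 and 1 at an unadjusted p under 0.05), with a median of 0.13. Pdk1, a kinase that turns off pyruvate dehydrogenase, gave 900.2, 790.0 and 613 on knockout, 214, 269, 95.4 and 363 on control and 212, 313, 157 and 234 on progenitor arrays. The knockout arrays were above all others, by 1.76 ± 0.37 over control (limma adjusted p = 0.0121), lost without knockout replicate 1 (0.0658) or 2 (0.0591). Against progenitors 6 were higher in control and 7 in knockout oligodendrocytes, and 0 were lower in limma (1 and 0 at an unadjusted p under 0.05). Of all genes 24.4% and 23.8% were higher and 29.6% and 26.8% lower in these comparisons. Another kinase, Pdk2, was 953 to 1110.2 in control and 827 to 1145 in knockout cultures and 34.7, 459.9, 97.5 and 82.8 in progenitors (3.04 and 2.89, adjusted p = 0.000461 and 0.00111). Without progenitor replicate 2, its highest progenitor array, the differences were 3.67 and 3.52, and without replicates 1 and 4 2.18 and 2.04. Mpc1, of the pyruvate carrier, was higher than in progenitors by 1.39 in control (adjusted p = 0.000922) and 1.11 in knockout oligodendrocytes (adjusted p = 0.00588), and by 0.90 and 0.62 without those replicates. The phosphatase Pdp1 was higher by 0.97 in control (adjusted p = 0.0127) and 1.94 in knockout oligodendrocytes (adjusted p = 0.000341). Its progenitor signals were 80.5 to 166.7, so it passed the filter through oligodendrocyte arrays alone. Its calls against progenitors are likewise not independent of the filter.

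**Figure D5:**
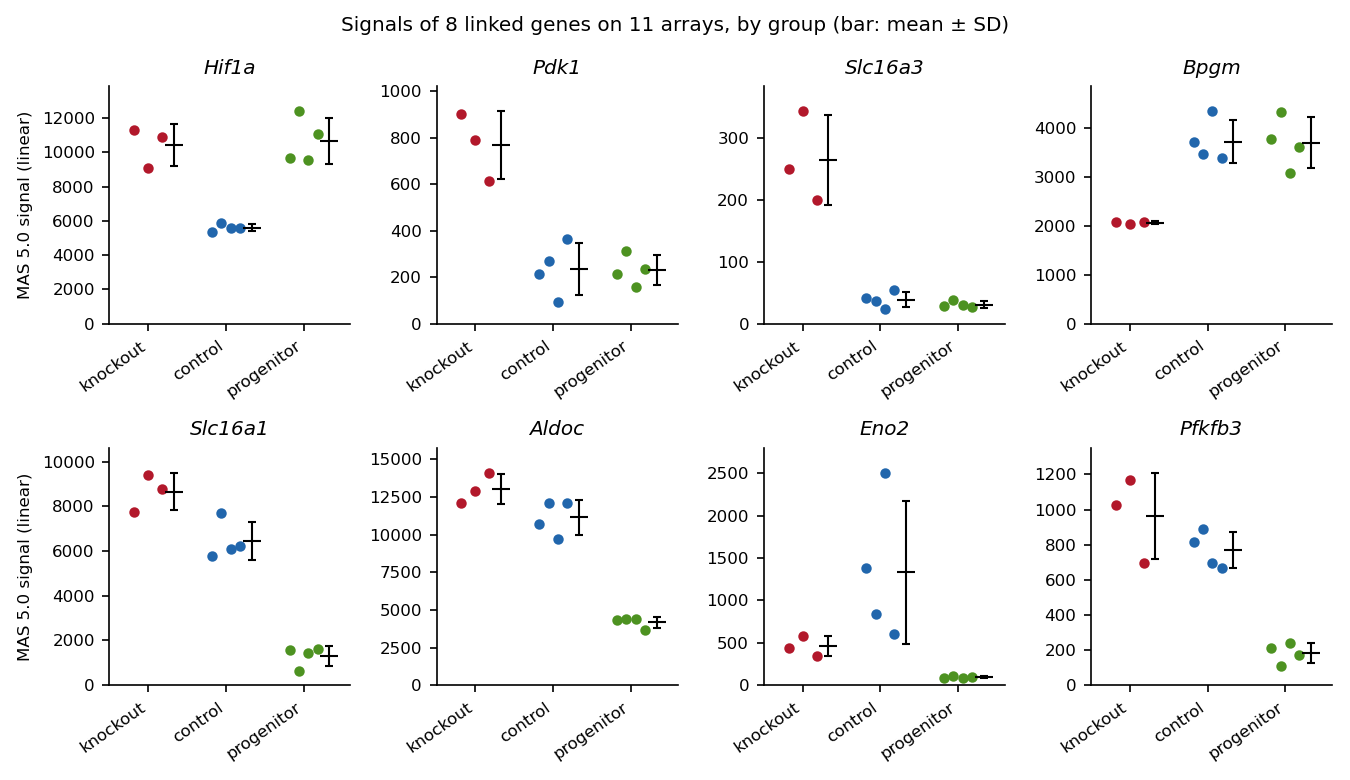
MAS 5.0 signal (linear axes from 0, one per gene) of 8 linked genes on every array, with the mean ± SD of knockout (n = 3), control (n = 4) and progenitor (n = 4) arrays. Slc16a3 exceeds 100 on knockout arrays alone, Hif1a is lowest in control, and Slc16a1, Aldoc and Eno2 are higher in both oligodendrocyte groups than in progenitors.

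Among the other glycolytic enzymes 0 of 6 tested rose in the knockout and 1 fell in limma (2 and 2 at an unadjusted p under 0.05), with a median of 0.11. Bpgm, bisphosphoglycerate mutase, was 2084, 2026 and 2067 on knockout and 3698, 3468, 4331 and 3372 on control arrays (-0.84 ± 0.16, limma adjusted p = 0.00568, and 0.150 with the mean of its probe sets). The brain isozymes Aldoc and Eno2 were higher in oligodendrocytes than in progenitors. Aldoc, an aldolase known as an astrocyte marker in brain, was 12107 to 14090.5 in knockout, 9723 to 12112 in control and 3646 to 4429 in progenitor cultures (1.63 and 1.41, adjusted p = 3.29e-06 and 4.74e-06). The astrocyte marker sums moved the same way, at 62996 to 70422, 44133 to 60927 and 712 to 1795, and their part was not tested. Eno2, neuronal enolase, was 1377, 844, 2503 and 604.5 in control, 443.5, 584 and 350.4 in knockout and 83.8 to 110.0 in progenitor cultures (3.41 and 2.08 over progenitors, adjusted p = 2.03e-05 and 0.00102). It passed the filter through oligodendrocyte arrays alone, so its calls against progenitors are not independent of the filter. The neuron marker sums were 1543 to 2098, 1027 to 1373 and 1119 to 1325 on the same groups. Single neuron markers differed in direction. Tubb3 was 599 to 1672 in control, 584 to 876 in knockout and 323 to 644 in progenitor cultures. Snap25 and Syt1 were highest in progenitors (149 to 197 and 153 to 409), at no more than 66.8 and 84.6 in the other groups. The part of these markers was not tested. Pkm, pyruvate kinase, was lower in control than in progenitors (-0.52, adjusted p = 0.00976).

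No gene of the NADH shuttles (8 tested) or of the pentose phosphate pathway (6 tested) passed between knockout and control in limma, also at an unadjusted p under 0.05 (0 of 8 and 0 of 6), with medians of -0.01 and -0.08. Gpd2, the mitochondrial partner of Gpd1 in the glycerol phosphate shuttle, was higher than in progenitors by 0.95 in control (limma adjusted p = 0.00812) and 1.24 in knockout oligodendrocytes (adjusted p = 0.00293). Without progenitor replicates 1 and 4 the former had an adjusted p of 0.0591. Got2, of the malate-aspartate shuttle, was lower in both, at -0.71 and -0.85, and turned to 0.48 and 0.49 with the mean of its probe sets. Rpe, of the pentose phosphate pathway, was higher in both oligodendrocyte groups (1.32 and 1.40), and 0.63 and 0.71 without progenitor replicates 1 and 4. Rpia was lower in knockout oligodendrocytes than in progenitors (-1.72, adjusted p = 0.00471), and -0.97 without those replicates, with control minus progenitors at -0.85 (adjusted p = 0.0775).

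For each of the 10 genes the most alike among all 10069, by Pearson's r of log2 signals over the 11 arrays, were noted as a description. The arrays share their groups, so genes that follow the same groups correlate. Pfkl went with Dtx1 (r = 0.961) and Maged2 (0.937), Pfkm with Rdh10 (0.975) and Jam2 (0.973), and Tpi1 with Rab12 (0.933) and the aldolase Aldoa (0.924). Hk2 went with Ttc9c (0.990) and Nfyc (0.988), Ldha with Dhx33 (0.963) and Desi2 (0.960), Hk1 with Rusf1 (0.972) and Igfbp4 (0.956), and Ldhb with Wdr54 (0.966) and Trip10 (0.961). Gpd1 went with Hscb (0.964) and Tmem98 (0.958), the latter 0.899 without control replicate 3. Pfkp went with Snn (0.929) and Aebp1 (0.885), the latter 0.670 without progenitor replicate 2, and Pgam1 with Pgs1 (0.870) and Ndufs3 (0.812). Of the genes named, Aldoa is an enzyme of the same pathway, with 8471, 7232 and 7314 on knockout, 6387, 5817, 4501 and 4649 on control and 6086, 6086.5, 6964 and 5327 on progenitor arrays. Its knockout arrays were above all others, at 0.53 ± 0.16 over control (limma adjusted p = 0.0656), which did not pass.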

How the data were processed

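RNA was measured on 11 Affymetrix arrays, after a labelling from 1 µg of total RNA with amplification in a pair of cycles, per the labels' protocols. The authors deposited MAS 5.0 signal intensity per probe set on a linear scale, scaled per chip to a target of 500 in GCOS 1.3, per the labels. Arrays have no read depth, and their number limits the precision. The trimmed mean signal was 499 to 499.9 on every array, and the members' highest signal was 12689 where arrays reached 22057 or more.

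Groups came from sample titles. The 10 genes, the lists and the tests were chosen with earlier results of these data known. Gene names came from the platform annotation: 34958 probe sets had 1 gene, 932 several and 9211 none. Of those with 1 gene, 34754 were matched by Entrez identifier to a RefSeq symbol. Probe sets reaching 200 on at least 3 arrays were kept (18568, 17121 of them with 1 gene), and the brightest by mean log2 signal represented a gene (10069 genes). As log2 of the signal plus 16, without further normalization, they were fitted in limma 3.58.1 (R 4.3.3), with a mean per group on all 11 arrays, a variance trend and Benjamini-Hochberg adjustment at 0.05. Fold values are fitted differences and understate changes of low signals. The pipeline was tested on simulated data.

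Numbers were taken to pair knockout with control arrays, because same-numbered arrays deviated together (r = 0.184, 0.171 and 0.312 across genes). They did not pair the progenitors. All members and their probe sets are named, with list genes past the threshold (at most 4 per direction between knockout and control and 2 per direction otherwise) and the 2 most similar genes of each member. Alternatives were other pseudocounts (1 and 64), other filters (none and 400), quantile normalization, only the 2 groups compared, the replicate block, the mean of probe sets, array weights, each array left out, and progenitor replicates 1 and 4 left out together. The last of these for probe sets, and all of them for list genes, were added after seeing the data.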

Additional observations from a re-analysis of the deposited data

Results flagged for a closer look

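In groups of 4 arrays, the highest or lowest array was set against the others of its group by Dixon's criterion. Of 40 groups looked at, 4 held such an array, where chance gives about 1 in 20. Gpd1 on control replicate 3 was far above the other controls on both of its main probe sets, with 3865.8 on 1448249_at against 1005 to 1442 and with 3162.7 on 1416204_at against 670 to 927.5. Pfkp on progenitor replicate 2 was 593.7 on 1416069_at, against 1075 to 1172 on the other progenitor arrays. Tpi1 on progenitor replicate 4 was 2462.1 on 1415918_a_at, against 4768 to 4919 on the other progenitor arrays.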

How the results depend on the processing

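Over 21 alternatives, 565 of 630 values of the 10 genes kept direction and side of the threshold, 28 lost it, 20 gained it and 17 changed sign, 1 of those past the threshold. The calls of Pfkl between knockout and control, of Hk2, Ldha and Gpd1 between control and progenitors, and of Pfkm and Hk2 between knockout and progenitors held under every alternative. The causes of the changes below were not tested.

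Between knockout and control, genes higher numbered 1 to 4 and genes lower 0 to 1 with 1 array left out (3 and 1 in the fit reported). The lower count was 0 without the filter, with the mean of probe sets and without progenitor replicates 1 and 4, and 2 with array weights. The replicate block gave 5 higher, where 22.2% of all genes passed in either direction. Between control and progenitors the ranges were 1 to 2 higher and 3 to 5 lower. There 2 were higher with the mean of probe sets and with array weights, and 2 were higher and 2 lower without progenitor replicates 1 and 4. Between knockout and progenitors the ranges were 1 to 3 higher and 1 to 2 lower, with 5 higher for the mean of probe sets and 3 lower for array weights. Without progenitor replicates 1 and 4, the probe sets past the threshold fell from 10 to 6 in either comparison with progenitors.

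Apart from Hk1, the signs that changed were of differences of at most 0.22 in the fit reported. With the mean of probe sets Hk1 was 0.31 for control minus progenitors and 0.68 (limma adjusted p = 0.0423) for knockout minus progenitors. Pgam1 was -0.05 with the replicate block, and -0.05 to 0.05 with 1 array left out, below 0 without knockout replicate 2 or control replicate 2 or 4. With array weights Pgam1 was -0.03 for control minus progenitors and -0.02 for knockout minus progenitors. For knockout minus progenitors, Pfkp was -0.17 with array weights and -0.12 to 0.30 with 1 array left out, below 0 without knockout or progenitor replicate 2. Ldhb was -0.33 with array weights, -0.04 with the mean of probe sets and -0.22 to 0.26 with 1 array left out, below 0 without knockout replicate 2 or progenitor replicate 2 or 3. Gpd1 was -0.02 to 0.40, below 0 without knockout replicate 2.

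Of the linked genes, 1064 of 1194 values kept their call, 126 lost it and 4 changed sign: Tkt for control minus progenitors with quantile normalization (0.07) and with the mean of probe sets (0.00), and Got2 with the mean of probe sets, at 0.48 for control and 0.49 for knockout minus progenitors. Between knockout and control the count of linked genes higher was 2 to 8 with 1 array left out, 10 with only those groups, 9 with the replicate block and with array weights, and 8 without progenitor replicates 1 and 4. The count lower was 1 to 5, then 4 with only those groups and with quantile normalization, 5 with the block and with array weights, and 1 with the mean of probe sets. Of all genes 15.8% passed in either direction with only those groups, 22.2% with the block and 21.5% with array weights. Between control and progenitors the count lower was 5 to 11 with 1 array left out and 4 with quantile normalization. Between knockout and progenitors it was 5 to 9, then 5 with quantile normalization, with only those groups and without progenitor replicates 1 and 4, and 2 with the replicate block.

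The replicate block turned no other call of the 10 genes between knockout and control. Against progenitors, where numbers do not pair the samples (r = -0.091 to 0.193), it gave Tpi1 an adjusted p of 0.169 for knockout minus progenitors. Quantile normalization moved the median of all genes to -0.10 for control minus progenitors. With 3 or 4 arrays a group the fit limits what passes: Ldhb between knockout and control was 0.69 ± 0.29 in the fit reported and 0.72 ± 0.16 (adjusted p = 0.0225) with the replicate block.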
